A study of Mus musculus with 3 samples.

Results

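Neurexins and neuroligins, gene families of synaptic adhesion proteins, were followed in RNA bound to tagged ribosomes from mouse dentate gyrus. The genes were chosen by name: Nrxn2, Nrxn3, Nlgn1, Nlgn2 and Nlgn3, which are 5 of the 32531 gene rows counted. All 5 passed the filter on low counts, as did 7908 genes with an exon length in all. The material came from adult C57BL/6J mice of the Penk-TRAP line NIDA186, which carry an EGFP/Rpl10a fusion, a green fluorescent tag on a ribosomal protein, under control of the proenkephalin gene Penk. Tagged polysomes were pulled down with antibodies against EGFP, and the bound RNA was sequenced in 3 immunopurified (IP) libraries of 1 untreated group, replicates 1 to 3. No input or unbound library was used here, so the values are levels in the purified RNA and not enrichment over tissue. Since the RNA is from bulk material, fewer cells of a type and less RNA per cell cannot be told apart. The labels do not say whether each replicate is a different animal, so p-values refer only to these 3 libraries, whose differences could be partly technical. The limma p-values and intervals rest on a spread drawn toward that of other genes. They do not measure a gene's own spread, which can be larger or smaller.

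Neurexins sit in the presynaptic membrane and neuroligins in the postsynaptic membrane, and the extracellular parts of both bind each other across the synaptic cleft. Each neurexin gene has a long alpha and a short beta form made from separate promoters, and alternative splicing sets which ligands a neurexin binds. Nlgn1 is known from excitatory synapses, Nlgn2 from inhibitory synapses, and Nlgn3 from both. The deposited counts are per gene, so alpha and beta forms and splice variants were not separated.

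The genes differ in base composition, which is shown here because the libraries differed along GC content of the transcript. CG pairs were counted for these genes only, so whether the libraries differed along them was not tested. The first 120 coding bases of each gene follow, 5′ to 3′ on the coding strand, from GENCODE vM21 transcripts on GRCm38, each within 1 exon, with every CG pair in capitals.
Nrxn2 (chr19:6428049-6428168, plus strand): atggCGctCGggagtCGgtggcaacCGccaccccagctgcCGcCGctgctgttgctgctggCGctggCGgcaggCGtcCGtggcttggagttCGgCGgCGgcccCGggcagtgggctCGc
Nrxn3 (chr12:88795185-88795304, plus strand): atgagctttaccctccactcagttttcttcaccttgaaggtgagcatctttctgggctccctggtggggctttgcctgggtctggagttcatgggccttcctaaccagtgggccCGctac
Nlgn1 (chr3:26133615-26133734, minus strand): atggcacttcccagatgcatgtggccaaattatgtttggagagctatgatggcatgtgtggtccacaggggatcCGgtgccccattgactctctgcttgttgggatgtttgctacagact
Nlgn2 (chr11:69834319-69834438, minus strand): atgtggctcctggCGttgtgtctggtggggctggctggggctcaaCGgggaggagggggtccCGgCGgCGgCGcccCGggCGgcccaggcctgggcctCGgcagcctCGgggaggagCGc
Nlgn3 (chrX:101301984-101302103, plus strand): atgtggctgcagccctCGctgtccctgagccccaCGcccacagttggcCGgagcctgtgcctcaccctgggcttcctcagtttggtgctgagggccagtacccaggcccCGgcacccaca
These stretches held 15 CG pairs in Nrxn2 and 11 in Nlgn2, against 4 in Nlgn3 and 1 each in Nrxn3 and Nlgn1. Over the longest transcript, GC content was 62.4% for Nrxn2 and 60.7% for Nlgn2, above 99.1 and 97.9% of tested genes. It was 49.3% for Nlgn3, 47.5% for Nrxn3 and 38.9% for Nlgn1, and only 4.12% of tested genes lay below Nlgn1.

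Gene totals were 5348761, 19195559 and 11059982 counts in replicates 1 to 3, and 8795, 14252 and 12019 genes had at least 10 counts. Replicate 1 was the shallowest, with 16.3% of its listed reads on genes, against 38.2 and 21.1% in replicates 2 and 3. Reads that fell on no annotated feature made up 50.7, 35.4 and 40.5% in replicates 1 to 3. Markers of dentate granule cells summed to 1760, 1992 and 1032 CPM (read counts scaled to a common library total, with TMM factors between libraries). Of the 9, 1 was at 0 in replicate 1 and 4 had fewer than 10 counts in at least 1 library. Prox1, Rfx3 and Stxbp6 carried most of this sum in each library. The 9 did not move together: C1ql2 ran 143, 64.7 and 8.81 CPM, whereas Dsp ran 27.1, 99.3 and 179 CPM. Pan-neuronal markers summed to 6712, 12201 and 6432 CPM and astrocyte markers to 3075, 1367 and 3233 CPM in replicates 1 to 3. Oligodendrocyte markers summed to 877, 733 and 1204 CPM, and those of oligodendrocyte precursors to 8.02, 24.3 and 45.1 CPM. GABAergic markers summed to 292, 239 and 346 CPM, endothelial and mural markers to 387, 867 and 305 CPM, and microglial markers to 3.30, 6.59 and 20.9 CPM, with 4, 1 and 2 of the 5 microglial genes at 0. Single genes carried some of these sums: Rgs5 made 370, 747 and 67.2 CPM of the endothelial and mural sum, whereas Flt1 ran 17.2, 89.8 and 227 CPM and Pecam1 and Cldn5 were at 0 in replicate 1. Snap25 likewise made 5316, 10871 and 5338 CPM of the pan-neuronal sum, whereas Rbfox3 was highest in replicate 1, with 727, 343 and 166 CPM.

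Nrxn3 was the neurexin with the steadier level. It had 2118, 6064 and 7073 counts, or 499, 265 and 605 CPM, with exact Poisson 95% intervals of 478 to 521, 258 to 271 and 591 to 619 CPM. Such intervals describe counting error alone, and are too narrow even for that if amplified copies of 1 molecule were counted as separate reads. Whether they were is not given. The lowest of the 3 libraries was replicate 2 and no interval overlapped another. Per kb of exon, the scale on which genes are compared with each other, Nrxn3 had 39.6, 21.0 and 48.0 CPM per kb, a mean of 36.2 ± 13.8 (SD, n = 3). It ranked above 88.7, 82.2 and 94.2% of tested genes in replicates 1 to 3. On the log2 scale per kb it lay 2.50 above the library's median tested gene (limma SE 0.43, adjusted p = 0.00854, limma TREAT with Benjamini-Hochberg adjustment), higher in 3 of 3 libraries. Without replicate 3 the difference was 2.40 and no longer passed (limma adjusted p = 0.106).

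Nrxn2 had 1251, 467 and 107 counts although replicate 1 was the shallowest library. Scaled to library size this gave 295, 20.4 and 9.15 CPM, with exact Poisson 95% intervals of 279 to 312, 18.6 to 22.3 and 7.50 to 11.1 CPM. Replicate 1 stood 32.2-fold above replicate 3, and replicates 2 and 3 lay close to each other by comparison. Per kb of exon the level was 21.4, 1.48 and 0.663 CPM per kb, a mean of 7.83 ± 11.7 (SD, n = 3), so that the SD exceeded the mean. In replicate 1 Nrxn2 ranked above 79.0% of tested genes, and in replicates 2 and 3 above only 13.9 and 7.17%. The mean log2 level per kb against the median tested gene was -1.12 (95% interval -2.67 to 0.42, limma adjusted p = 0.799), and replicates 1 to 3 gave 1.93, -2.10 and -3.20. The limma SE of 0.76 behind that interval is smaller than the SD of 2.70 over these libraries would give.

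Within each library Nrxn2 lay below Nrxn3. The log2 difference per kb, Nrxn2 minus Nrxn3, was -0.89 in replicate 1, -3.82 in replicate 2 and -6.15 in replicate 3, averaging -3.62 (SD 2.64, n = 3, limma adjusted p = 7.8e-05). The limma SE of 0.83 is pooled over genes and is smaller than this pair's own spread would give. Nrxn3 was subtracted from every tested gene in that fit, so its variation is shared by all of them and their spreads are not independent. The adjusted p therefore does not measure the spread of this pair. With 3 libraries an exact sign-flip test cannot go below p = 0.25. Of the summed level of the 2 genes, Nrxn2 made up 35.0, 6.57 and 1.36%. Against Nrxn3, 70.8% of all tested genes were called lower and 2.82% higher.

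The neuroligins differed from library to library in order as well as in level. Nlgn1 had 231, 2691 and 2131 counts, or 54.5, 117 and 182 CPM, with intervals of 47.7 to 62.0, 113 to 122 and 175 to 190 CPM. It was lowest in replicate 1 and highest in replicate 3. Its level was 4.06, 8.75 and 13.6 CPM per kb, a mean of 8.80 ± 4.76 (SD, n = 3), with a log2 level of 0.38 against the median tested gene (95% interval -0.64 to 1.39, limma adjusted p = 0.999).

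Nlgn2, the neuroligin of inhibitory synapses, had 1159, 840 and 961 counts, or 273, 36.7 and 82.2 CPM. The intervals were 258 to 289, 34.2 to 39.2 and 77.1 to 87.6 CPM, and replicate 1 stood 7.45-fold above replicate 2, the lowest. Per kb it had 47.2, 6.34 and 14.2 CPM per kb, a mean of 22.6 ± 21.7 (SD, n = 3). It ranked above 91.1% of tested genes in replicate 1 and above 49.8 and 73.2% in replicates 2 and 3. The log2 level against the median tested gene was 1.42 (95% interval 0.31 to 2.54, limma TREAT adjusted p = 0.544), and the test did not show a level above its log2 threshold of 1. Here too the limma SE, 0.54, is smaller than the SD of 1.55 over the libraries would give.

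Nlgn3 had the smallest range over the 3 libraries of the 5 genes. It had 653, 2347 and 1881 counts, or 154, 102 and 161 CPM, with intervals of 142 to 166, 98.4 to 107 and 154 to 168 CPM. Replicates 1 and 3 overlapped and replicate 2 lay below both. Per kb it had 16.6, 11.1 and 17.4 CPM per kb, a mean of 15.0 ± 3.44 (SD, n = 3), and a log2 level of 1.28 against the median tested gene (95% interval 0.34 to 2.23, limma TREAT adjusted p = 0.614). Nlgn3 is also known from astrocytes and oligodendrocyte precursors. The summed astrocyte markers were lowest in replicate 2, as Nlgn3 was, and Slc1a2 alone made 2874, 1228 and 2796 CPM of that sum. However, 2 of the 7, Aqp4 with 24.8, 61.3 and 96.0 CPM and Gja1 with 0, 12.9 and 11.0 CPM, were lowest in replicate 1. The summed precursor markers, at 8.02, 24.3 and 45.1 CPM, were also lowest in replicate 1, unlike Nlgn3. Pdgfra, Cspg4 and Olig2 were each lowest there, but Sox10 was highest there, with 2.83, 1.92 and 1.20 CPM. In replicate 1 these 4 genes had only 7, 13, 2 and 12 counts. The part of either cell type in the level of Nlgn3 was not tested. GENCODE vM21 places 41.2% of the exon bases of Nlgn3 also in Gm21986, which has no row in the files.

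**Figure D1:**
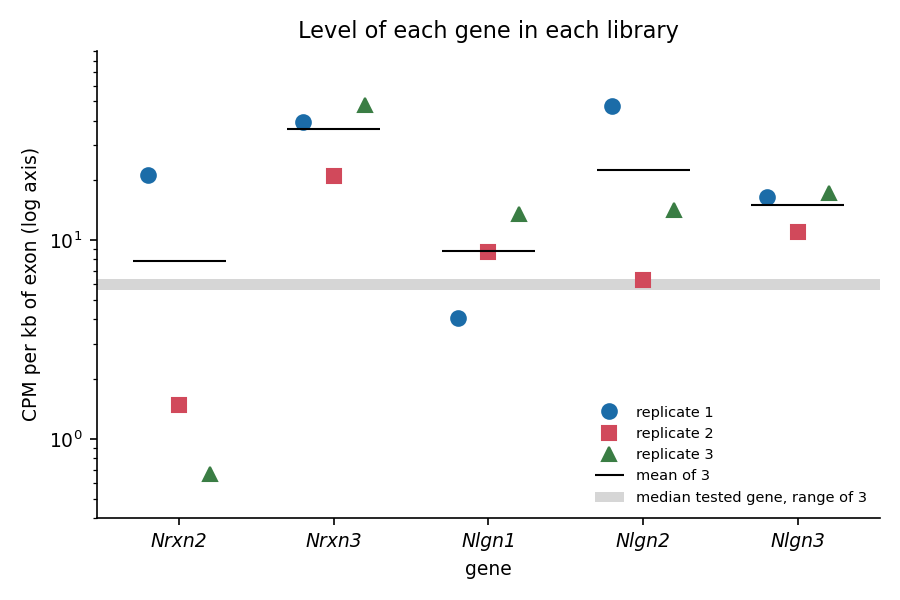
CPM per kb of exon (log axis) of each gene in replicates 1 to 3, with the mean of the 3 as a line and the range of the library's median tested gene as a grey band. Nrxn2 spans 0.663 to 21.4 CPM per kb, whereas Nlgn3 stays between 11.1 and 17.4 and Nrxn3 between 21.0 and 48.0, both above the band in every library.

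Of the summed neuroligin level per kb, Nlgn2 made up 69.6% in replicate 1, with 24.5% for Nlgn3 and 5.98% for Nlgn1. In replicate 2 Nlgn3 led with 42.3%, followed by Nlgn1 with 33.5% and Nlgn2 with 24.2%. Replicate 3 had 38.4% Nlgn3, 31.5% Nlgn2 and 30.1% Nlgn1. The leading neuroligin was thus Nlgn2 in replicate 1 and Nlgn3 in replicates 2 and 3. Mean shares were 41.8 ± 24.3% for Nlgn2, 35.1 ± 9.38% for Nlgn3 and 23.2 ± 15.0% for Nlgn1 (SD, n = 3). The summed level itself was 67.9, 26.1 and 45.2 CPM per kb.

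**Figure D2:**
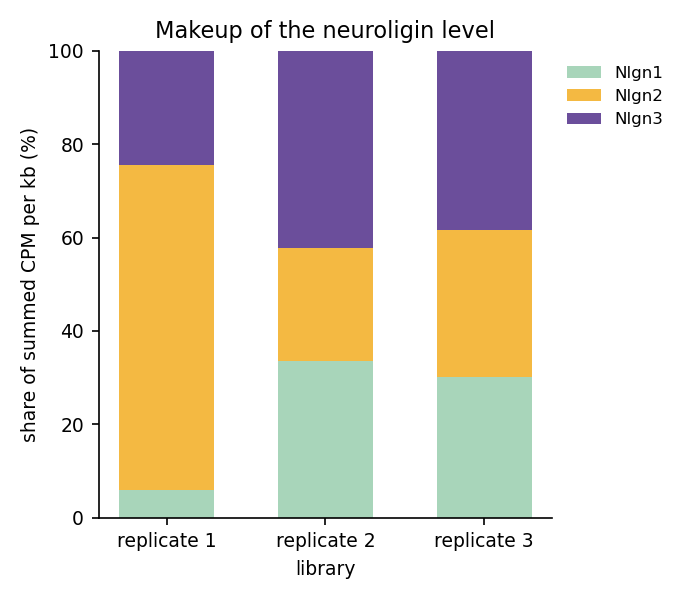
Share of each neuroligin in the summed neuroligin CPM per kb (%), 1 bar per library. Nlgn2 takes 69.6% of the bar of replicate 1 and 24.2 and 31.5% of the other bars.

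Ordered by mean level per kb, the genes ran Nrxn3, Nlgn2, Nlgn3, Nlgn1 and Nrxn2, and no neighbours in that order passed the test of their difference. Nrxn3 minus Nlgn2 was 1.07 on the log2 scale per kb (95% interval -0.73 to 2.88, limma adjusted p = 0.412). Nlgn2 minus Nlgn3 was 0.14 (95% interval -0.92 to 1.20, limma adjusted p = 0.836), with 1.51, -0.80 and -0.29 in replicates 1 to 3. Nlgn1 minus Nlgn3 was -0.91 (95% interval -1.94 to 0.13, limma adjusted p = 0.136), lower in 3 of 3 libraries. Nrxn2 minus Nlgn1 was -1.50 (95% interval -3.71 to 0.71, limma adjusted p = 0.301), and replicate 1, at 2.39, had the opposite sign to replicates 2 and 3. The intervals are wide enough to hold differences of several fold, so these pairs are not shown to be alike.

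Of all 10 pairs, 4 passed with adjustment over all tested genes, and in 3 of these the 3 libraries shared a direction. Each fit subtracted the second gene of the pair from all tested genes. The SE and adjusted p therefore depend on which gene came second, and calls with different second genes are not directly comparable. Nrxn2 minus Nlgn2 had a smaller SD than Nrxn2 minus Nlgn3, 1.67 against 2.56, but a larger limma SE, 1.23 against 0.73. Fits with the order swapped were not run. Nrxn3 exceeded Nlgn3 by 1.21 on the log2 scale per kb, with 1.25, 0.92 and 1.47 in replicates 1 to 3 (SD 0.27, limma SE 0.43, adjusted p = 0.0134), the pair with the smallest spread. Nrxn3 exceeded Nlgn1 by 2.12, with 3.28, 1.26 and 1.82 (SD 1.04, limma SE 0.70, adjusted p = 0.0460). Both calls ended without replicate 2 or without replicate 3 (limma adjusted p from 0.0671 to 0.443), and per longest coding length, at 0.76 and 1.13 (limma adjusted p = 0.114 and 0.212). Nrxn2 minus Nlgn3 was -2.41 (SD 2.56, limma SE 0.73, adjusted p = 0.00404), but the libraries gave 0.36, -2.90 and -4.69. This call ended without replicate 2 or 3 and per longest transcript length (-1.47, limma adjusted p = 0.0896). Nrxn2 minus Nlgn2, at -2.55, did not pass after adjustment (limma adjusted p = 0.148, limma unadjusted p = 0.0384). Nrxn2 nevertheless lay below Nlgn2 in 3 of 3 libraries, with -1.15, -2.10 and -4.40 in replicates 1 to 3. Nlgn1 minus Nlgn2, at -1.05, did not pass either (limma adjusted p = 0.477), and the libraries gave -3.54, 0.46 and -0.067. Against Nlgn3, 9.42% of all tested genes were called higher and 39.5% lower, against Nlgn1 8.71 and 11.9%, and against Nlgn2 1.67 and 7.64%.

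**Figure D3:**
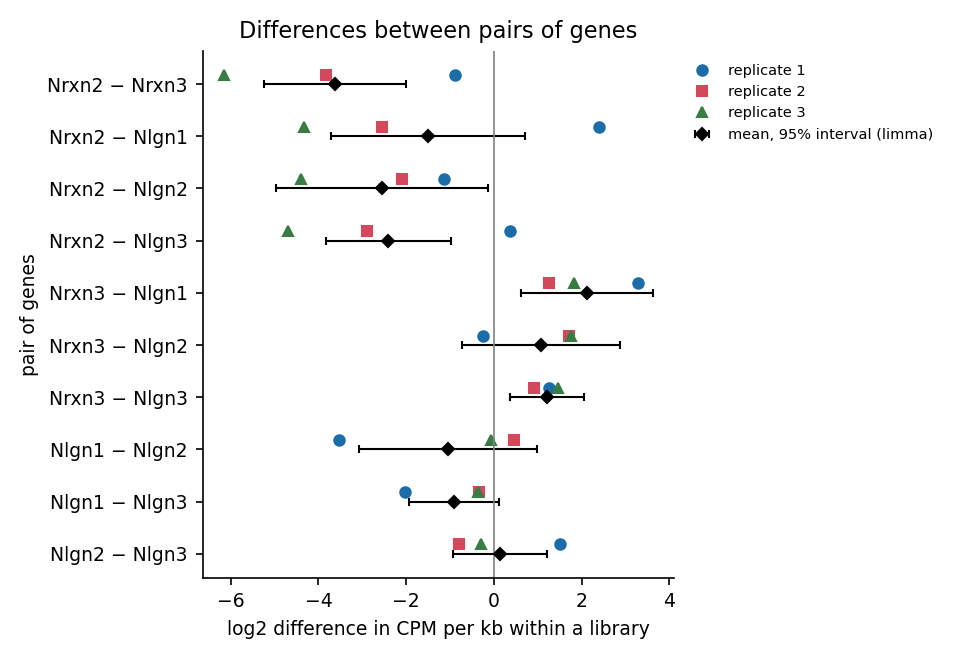
Log2 difference in CPM per kb between the genes of each of the 10 pairs, first gene minus second, in replicates 1 to 3 (coloured points) and as the mean with its limma 95% interval (black). Replicate 1 stands to the right of the other libraries in all 4 pairs that begin with Nrxn2, and the 3 libraries lie closest for Nrxn3 minus Nlgn3, between 0.92 and 1.47.

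Against the median tested gene, 1 of the 5 genes was called higher, Nrxn3, and 0 lower, by limma TREAT and also at an unadjusted p below 0.05. Over all tested genes 10.7% were called higher and 4.32% lower, and 14.8 and 9.31% at an unadjusted p below 0.05. When no genes were filtered out for low counts, so that the median gene lay lower, Nlgn2 and Nlgn3 were called higher too (log2 level 3.36 and 3.22, limma adjusted p = 7.4e-04 and 0.00161).

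Counts of all 5 genes varied between libraries by more than sampling noise, as did 97.4% of tested genes (Poisson chi-square test against effective library sizes, Benjamini-Hochberg adjustment). The chi-square values ran from 241 for Nlgn3, the lowest, to 6250 for Nrxn2. The range between libraries in log2 CPM was 4.99 for Nrxn2, 2.89 for Nlgn2, 1.74 for Nlgn1, 1.19 for Nrxn3 and 0.65 for Nlgn3, against a median of 1.84 over tested genes. The range of Nrxn2 exceeded that of 97.5% of tested genes and that of Nlgn3 only that of 9.64%. Without replicate 1 the range of Nrxn2 was 1.16, that of Nlgn2 1.15 and that of Nlgn1 0.62, the last slightly below the 0.64 of Nlgn3. Without replicate 2 the range of Nlgn2 was 1.68 and that of Nrxn3 0.33, and that of Nlgn3 was 0.12 and within sampling noise (adjusted p = 0.0890). Without replicate 3 the range of Nlgn1 was 1.15. The biological coefficient of variation by edgeR, which draws single genes toward the rest, was 0.81 for Nrxn2, 0.71 for Nlgn2, 0.69 for Nlgn1, 0.66 for Nlgn3 and 0.61 for Nrxn3, against a median of 0.80.

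Nrxn2 and Nlgn2 were the 2 genes with their highest CPM in replicate 1. They also had the most CG pairs in the coding starts printed above and the highest GC content over the transcript. Against the library's median tested gene, the log2 level of Nlgn3 was highest in replicate 1 too, with 1.57, 0.79 and 1.49. Replicate 1 was highest in CPM for 37.6% of tested genes and lowest, as for Nlgn1, for 42.2%. Replicate 1 minus replicate 3 in log2 CPM was 4.99 for Nrxn2 and 1.73 for Nlgn2, against -0.064 for Nlgn3, -0.28 for Nrxn3 and -1.74 for Nlgn1. Over tested genes the median of that difference was -0.38 in the quintile of lowest GC content and 0.37 in the quintile of highest GC content, and 0.71 in the 396 genes of the top 5% by GC content. In that difference Nrxn2 exceeded 98.4% of the genes in its own quintile, Nlgn2 77.2%, Nlgn3 52.3%, Nrxn3 47.7% and Nlgn1 23.5%. Replicate 1 minus replicate 2 was 3.84 for Nrxn2 and 2.89 for Nlgn2, against a median of 0.34 in their quintile. For Nlgn1 that difference was -1.11, against a median of -0.57 in its quintile. Nrxn3 had 0.92 and Nlgn3 0.59, opposite in sign to the median of -0.14 in the quintile that holds both. After the library differences were corrected for GC content by lowess, the range of Nrxn2 was 4.26 in log2 CPM, against 4.99 before. That of Nlgn2 was 2.37, against 2.89, and that of Nlgn1 was 1.45, against 1.74. The part of GC content in these ranges was not tested. The range of Nrxn3 was 1.19 before and after the correction, and that of Nlgn3 was 0.77 after it, against 0.65 before. With the correction Nrxn3 and Nlgn3 were also highest in replicate 1, but exceeded replicate 3 by only 0.015 and 0.14. The share of all tested genes highest in replicate 1 after the correction was not computed.

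**Figure D4:**
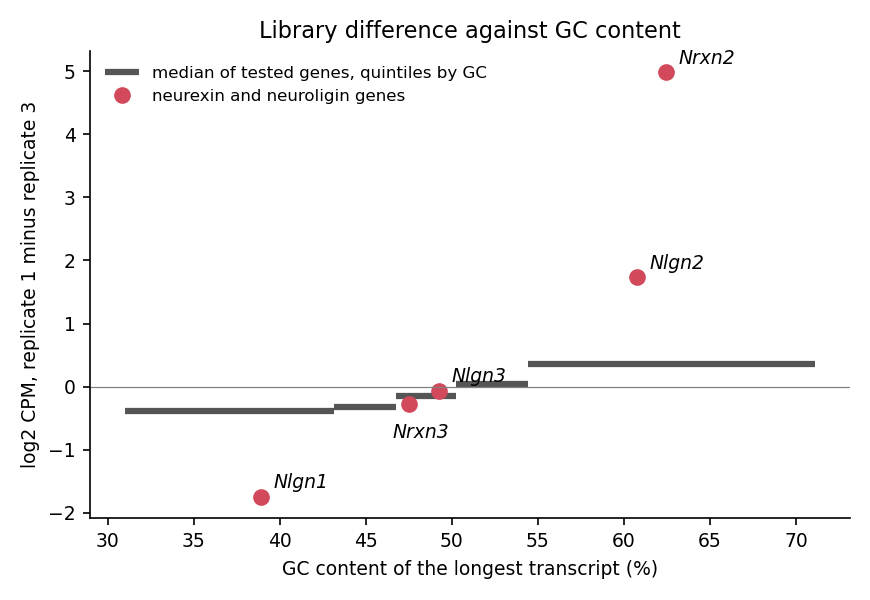
Difference in log2 CPM between replicate 1 and replicate 3 against GC content of the longest transcript (%), for the 5 genes (red points) and as medians of the tested genes in quintiles by GC content (grey lines). Nrxn2 at 4.99 and Nlgn2 at 1.73 lie above the median of the quintile of highest GC content, 0.37, and Nlgn1 at -1.74 lies below that of the lowest, -0.38.

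The tested genes nearest to each gene in level over the 3 libraries were found by the root mean square difference in log2 CPM per kb. Nearest to Nrxn2 were Qars, a glutaminyl tRNA synthetase, with 22.1, 1.47 and 0.625 CPM per kb and a root mean square difference of 0.044, and the myosin gene Myo1d, at 0.13. Nearest to Nrxn3 were Gabbr2, a subunit of the GABA-B receptor, at 0.094 and Rbbp6 at 0.098. The amino acid transporter gene Slc7a8 at 0.082 and Rabgap1 at 0.098 were nearest to Nlgn1. Those nearest to Nlgn2 were 1700001L19Rik at 0.16 and Diras1, a small GTPase of the Ras family, at 0.20. For Nlgn3 they were the dynamin gene Dnm3 at 0.067 and Dag1 at 0.080; Dag1 encodes dystroglycan, a neurexin ligand, and had 17.8, 10.7 and 16.4 CPM per kb. With 3 libraries such likeness is a description of these libraries.

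Genes that act with the 2 families were read on the same scale, and each count is set against the shares over all tested genes, 10.7% above and 4.32% below the median tested gene (14.8 and 9.31% at an unadjusted p below 0.05). Of 18 listed extracellular ligands of neurexins, 11 were tested, and 3 (27.3%, against 10.7% of all tested genes) lay above the median tested gene and 0 below it (limma TREAT; 4 and 0 at an unadjusted p below 0.05). Car10, a catalytically inactive carbonic anhydrase relative that binds neurexins, had 2043, 6006 and 884 counts and 43.0 ± 32.0 CPM per kb (SD, n = 3), a log2 level of 2.46 (limma adjusted p = 0.0213). Adgrl1, a latrophilin, had 42.8 ± 23.2 CPM per kb and a log2 level of 2.69 (limma adjusted p = 0.00390). The third, Lrrtm1, a leucine-rich repeat protein of excitatory synapses, had a log2 level of 2.38 (limma adjusted p = 0.0344). The cerebellin gene Cbln4 was lowest, with 0, 39 and 2 counts, and a count of 0 in replicate 1 allows up to 0.707 CPM. The median log2 level of the 11 tested ligands was 1.71, against -0.14 over all tested genes.

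Of 7 listed partners of the neurexin cytoplasmic tail, 6 were tested, with a median log2 level of 1.19, and 2 (33.3%, against 10.7% of all tested genes) lay above the median tested gene and 0 below it by limma TREAT, the same counts as at an unadjusted p below 0.05. They were Lin7a at 60.1 ± 30.9 and Lin7c at 57.2 ± 21.9 CPM per kb (SD, n = 3), PDZ proteins that form a complex with Cask. Lin7b, the lowest, had 2, 146 and 2 counts.

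On the neuroligin side, 8 cytoplasmic partners were tested, with a median log2 level of 1.27, and 1 (12.5%, close to the 10.7% of all tested genes) lay above the median tested gene and 0 below it by limma TREAT (2 and 0 at an unadjusted p below 0.05). This was Dlg2, a PDZ scaffold of excitatory synapses, with 6585, 22267 and 16033 counts, or 95.4, 59.7 and 84.3 CPM per kb. Its mean of 79.8 ± 18.2 CPM per kb (SD, n = 3) gave a log2 level of 3.69 (limma adjusted p = 2.9e-05). Lhfpl4, an auxiliary protein of GABA-A receptors that binds Nlgn2, followed with 40.3, 16.1 and 12.3 CPM per kb, a mean of 22.9 ± 15.2 (SD, n = 3). Its log2 level was 1.73 and did not pass (limma adjusted p = 0.277). Dlg1 was lowest at 4.06 ± 1.77 CPM per kb.

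Of 5 listed extracellular modulators, 4 were tested, with a median log2 level of 0.014, and 1 (against 10.7% of all tested genes) lay above the median tested gene and 0 below it, at both the adjusted limma TREAT threshold and an unadjusted p below 0.05. This was Sparcl1, the secreted astrocyte protein hevin that bridges neurexins and neuroligins, at 102 ± 56.0 CPM per kb (SD, n = 3) with 498, 7754 and 5128 counts. The protease gene Adam10 followed at 9.06 ± 2.64 CPM per kb, and the protease gene Mmp9 had 0 counts in each library, which allows up to 0.707, 0.131 and 0.257 CPM. Regulators of neurexin splicing, the Khdrbs genes, were all 3 tested, and 0 passed in either direction, by limma TREAT or at an unadjusted p below 0.05, with a median log2 level of 0.72. Khdrbs3 had 17.7 ± 8.08, Khdrbs1 10.5 ± 4.23 and Khdrbs2 1.41 ± 1.01 CPM per kb.

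Among 29 other synaptic organisers, 26 were tested, with a median log2 level of 0.77, and 3 (11.5%, close to the 10.7% of all tested genes) lay above the median tested gene and 0 below it by limma TREAT (5 and 0 at an unadjusted p below 0.05). Tenm2, a teneurin that binds latrophilins, had 69.6 ± 26.4 CPM per kb (SD, n = 3) and a log2 level of 3.45 (limma adjusted p = 6.8e-05). Lrrc4c, the netrin G ligand NGL-1, had 389, 8856 and 3233 counts and 54.4 ± 32.2 CPM per kb. Slitrk3, a postsynaptic partner of receptor phosphatases at inhibitory synapses, had a log2 level of 2.73 (limma adjusted p = 0.00318). Lrfn2 was lowest, with 0, 46 and 12 counts.

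**Figure D5:**
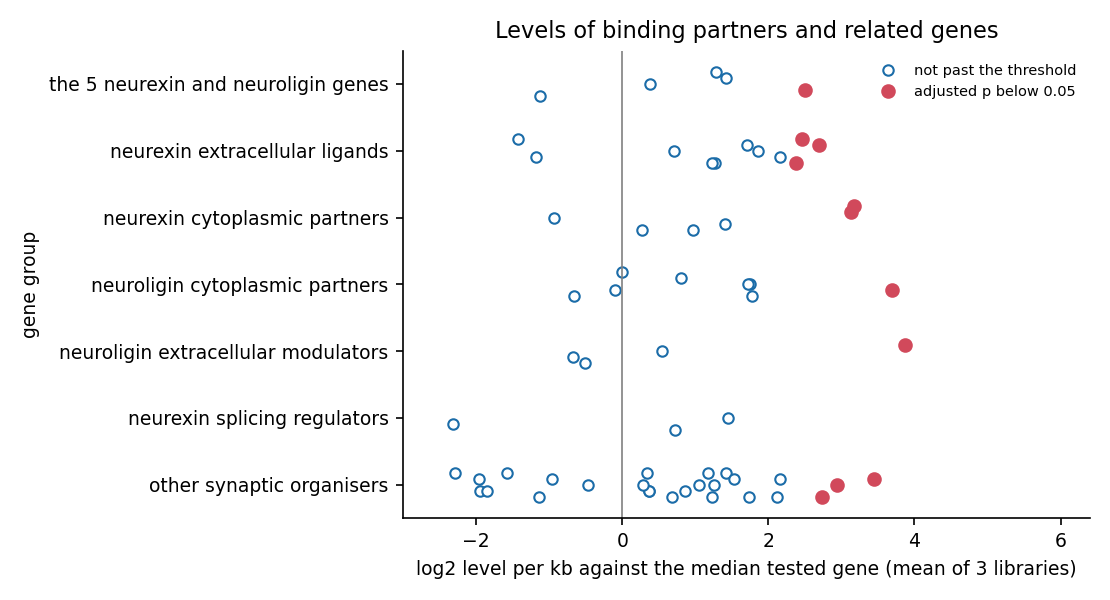
Mean log2 level per kb against the library's median tested gene, 1 point per tested gene, by gene group; filled points passed limma TREAT at an adjusted p below 0.05. Between 0 and 3 genes of a group passed above the median gene and 0 below it, against 10.7 and 4.32% of all tested genes. With 3 to 26 genes a group, 0 calls below is near that share.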

How the data were processed

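The deposited values are raw read counts for every gene symbol, with 1 file for each IP library. Per the submitters' processing notes, the authors used STAR 2.0.0e, HTSeq and mm10. Annotation, strand setting and filters are not given in the sources used here, and the deposited counts were neither normalised nor pooled.

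Summary rows were left out; 32.2, 24.8 and 37.5% of listed reads in replicates 1 to 3 aligned to several places. edgeR 4.0.16 in R 4.3.3 gave TMM factors (0.793, 1.19 and 1.06), the filter filterByExpr (8510 genes) and log2 CPM with a prior count of 2. Levels were divided by the exon length of the gene in GENCODE vM21 (GRCm38), although the authors may have counted on another annotation; 92.9% of filtered genes had a length. limma 3.58.1 tested levels against the library's median tested gene (TREAT, log2 threshold 1) and, in separate fits over all tested genes, each gene against a given neurexin or neuroligin, with Benjamini-Hochberg adjustment over all tested genes and a threshold of 0.05. Poisson chi-square tests compared counts with effective library sizes. Scripts were tested on simulated data. Figures used matplotlib 3.10.9.

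Named were the 5 genes, the 2 highest and the 1 lowest members of each list by mean CPM per kb, and the 2 nearest genes to each; Lrrtm1 and Slitrk3, which passed, were named after their values were seen. The genes and lists were chosen with earlier results of these data known. Some genes of the family and the lists are not reported here. Alternatives were no length correction, longest transcript or coding length, no filter, DESeq2 1.42.0 size factors, 0.5 as the prior count, no TREAT threshold, thinning and each replicate left out; a GC correction and robust moderation were added after seeing the data.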

Additional observations from a re-analysis of the deposited data

How the results depend on the processing

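Nrxn2 minus Nrxn3 kept its direction and its call under every alternative run, with limma adjusted p from 1.4e-05 to 0.0149. All these runs pooled the spread over genes and kept Nrxn3 as the second gene, so they do not test those steps. The size of the difference ran from -4.99 without replicate 1 to -2.36 without replicate 3, against -3.62 with all libraries. Without length correction the log2 level of Nrxn2 turned to 0.33, that of Nlgn3 passed at 2.16, Nlgn1 minus Nlgn2 turned to 0.17 and Nlgn2 minus Nlgn3 to -0.54. Per longest coding length the same 2 pairs turned to 0.15 and -0.52, and Nrxn3 minus Nlgn1 at 1.13 and Nrxn3 minus Nlgn3 at 0.76 lost their calls. Per longest transcript Nrxn2 minus Nlgn3 lost its call at -1.47. With no filter the level of Nrxn2 turned to 0.81, those of Nlgn2 and Nlgn3 passed at 3.36 and 3.22, and 2940 genes lay above, 2770 below and 15262 beyond sampling noise, against 845, 342 and 8286. With a TREAT threshold of 0, Nlgn2 passed at 1.42 and Nlgn3 at 1.28, and 1736 genes lay above and 1024 below.

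Leaving out each replicate in turn gave levels of -2.17 to 0.047 for Nrxn2, turning without replicate 3, and of 2.40 to 2.82 for Nrxn3, lost without replicate 3. Without replicate 1, calls were gained by Nrxn2 minus Nlgn1 (range -3.45 to -0.083), Nrxn2 minus Nlgn2 (-3.25 to -1.62) and Nrxn3 minus Nlgn2 (0.73 to 1.74), and the sign turned for Nlgn1 minus Nlgn2 (-1.80 to 0.20) and Nlgn2 minus Nlgn3 (-0.54 to 0.61). Without replicate 2 or 3, calls were lost by Nrxn2 minus Nlgn3 (-3.80 to -1.27), Nrxn3 minus Nlgn1 (1.54 to 2.55) and Nrxn3 minus Nlgn3 (1.09 to 1.36). The range of Nlgn3 ran from 0.12 to 0.64, and genes above and below from 597 to 1538 and from 245 to 607, most without replicate 1. The causes were not tested. No paired analysis was possible because all libraries belong to 1 group. The depth of replicate 1 limits genes with low counts most.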
